A study of Mus musculus with 17 samples.

Results

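The GDNF-RET axis is the signalling route by which the mesenchyme of the embryonic kidney makes the ureteric bud grow out and branch. It was followed here through 9 genes chosen by symbol, namely Gdnf, Ret, Gfra1, Itga8, Npnt, Etv4, Etv5, Spry1 and Sox8. All 9 were found, each on 1 row, among the 24432 gene IDs of the deposited expression table, and all 9 passed the filter on low values.

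RNA was sequenced from dissected mouse kidneys of mixed strain at E12.5. In 5 libraries (genotype Ctnnb1-delta3 c/+;Foxd1, called Foxd1-Cre here) an activated allele of Ctnnb1, the gene of beta-catenin, was switched on by a Cre expressed in the stromal lineage. In 3 libraries (Ctnnb1-delta3 c/+;Six2, called Six2-Cre) the same allele was switched on by a Cre expressed in nephron progenitors. They were compared with 9 wild-type libraries, whose Cre and Ctnnb1 alleles are not described further. Each Cre marks the cells in which its promoter has been active and all their descendants, and every library is a mixture of all kidney cells. Foxd1-Cre libraries were set against wild-type replicates 1 to 6 and Six2-Cre libraries against wild-type replicates 7 to 9. The labels do not say that replicates came from separate animals or litters, so p-values measure the spread between these libraries, which may be technical.

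GDNF, made by the mesenchyme around the bud, binds the co-receptor GFRA1 and the receptor tyrosine kinase RET on the bud's epithelium, most strongly at its tips. Integrin alpha 8 on the mesenchyme and its ligand nephronectin, which the bud lays down in its basement membrane, are needed for normal Gdnf expression. Inside the bud, RET signalling raises the ETS transcription factors ETV4 and ETV5, SOX8 acts with SOX9 in the same tip cells, and the feedback inhibitor Sprouty 1 restrains the receptor's signal.

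The libraries fell into 2 sets of unequal depth. The 11 libraries with the Foxd1-Cre mutants had 5312 to 5807 gene IDs at 0, and the 6 libraries with the Six2-Cre mutants had 7590 to 7891. The smallest repeated step between low values corresponded to about 30000000 to 37000000 reads per library in the first set and about 4900000 to 6200000 in the second. Wild-type replicate 5 stood apart from the rest of its set, at 34.7 on the second principal component against -13.2 to 10.1 for the other 10 libraries, so its removal is given beside the results it touches. As checks of the labels, the Wnt target Axin2 was higher in both mutants (log2 change 2.63 ± 0.06 in Foxd1-Cre and 1.41 ± 0.09 in Six2-Cre kidneys, SE). Foxd1 fell by 2.32 ± 0.10 in Foxd1-Cre kidneys and Six2 by 2.10 ± 0.08 in Six2-Cre kidneys (SE, log2 scale).

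Levels were given as FPKM, fragments per kilobase of transcript and per unit of library size, so that genes can be compared per length. In wild-type replicates 1 to 6 the order by mean was Etv4 (61.3 ± 3.82 FPKM), Spry1 (47.8 ± 1.92), Etv5 (43.1 ± 4.08), Gfra1 (38.6 ± 3.49), Npnt (22.3 ± 3.17), Gdnf (20.3 ± 1.85), Itga8 (16.2 ± 2.70), Ret (11.4 ± 2.46) and Sox8 (4.68 ± 0.455), all SD with n = 6. Neighbours in that order overlapped in range except Etv4 and Spry1, Gfra1 and Npnt, and Ret and Sox8. The receptor kinase was thus listed at a lower level per length than its co-receptor in every wild-type library, with Gfra1 at 2.61 to 4.11 times Ret in wild-type replicates 1 to 6 and 3.58 to 4.30 times in wild-type replicates 7 to 9. The wild types of the 2 sets differed most at Itga8, which ran from 26.6 to 30.2 FPKM in wild-type replicates 7 to 9 and from 11.2 to 18.9 FPKM in wild-type replicates 1 to 6.

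**Figure D1:**
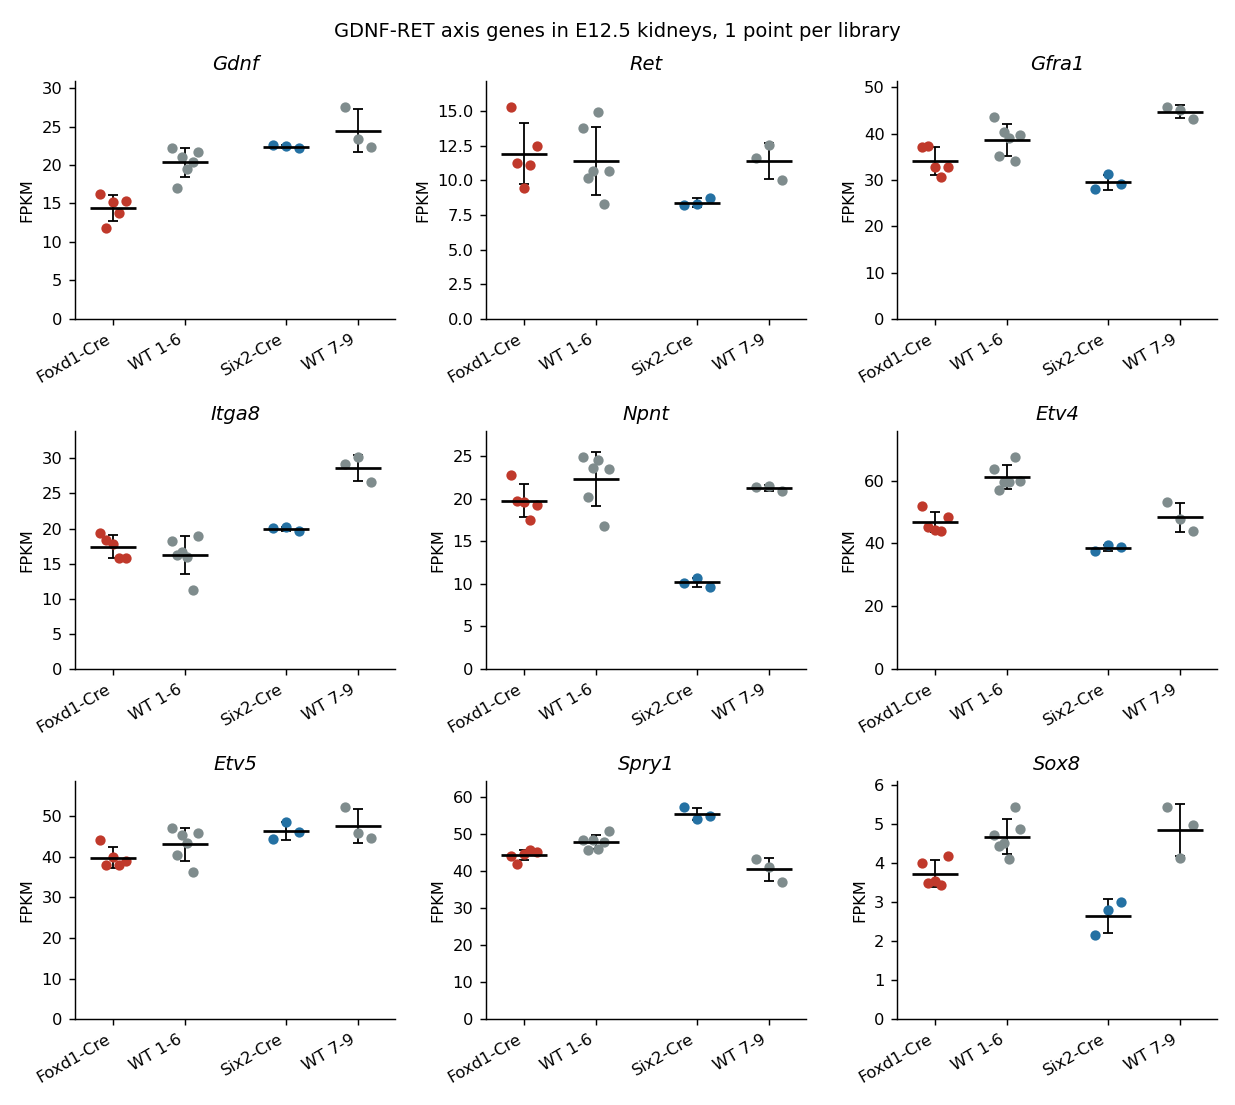
FPKM (linear axis from 0) of the 9 axis genes in every library, with Foxd1-Cre beside wild-type replicates 1 to 6 (WT 1-6) and Six2-Cre beside wild-type replicates 7 to 9 (WT 7-9); points are libraries, the thick line is the mean and the bar 1 SD. Npnt in Six2-Cre kidneys (9.67 to 10.7 FPKM) and Gdnf in Foxd1-Cre kidneys (11.8 to 16.2 FPKM) lie below all of their own wild types.

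The ligand gene Gdnf and the tip factors Etv4 and Sox8 fell in Foxd1-Cre kidneys, while Ret, Gfra1, Itga8, Npnt, Etv5 and Spry1 did not pass the test. In Foxd1-Cre kidneys 3 of the 9 genes were called, all lower (Gdnf, Etv4 and Sox8, limma on log2(FPKM + 1), adjusted p under 0.05). Over all 13996 genes tested in that comparison 13.3% were called, made up of 4.82% lower and 8.45% higher. The median log2 change of the 9 genes was -0.16, against -0.01 over all genes tested.

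Gdnf (ENSMUSG00000022144, GRCm38 chromosome 15, 7810846 to 7837575, plus strand) encodes the ligand of the axis. It was at 16.2, 11.8, 15.1, 13.7 and 15.3 FPKM in Foxd1-Cre replicates 1 to 5, against 17.1 (lowest), 20.7 (median) and 22.2 (highest) FPKM in wild-type replicates 1 to 6. Every Foxd1-Cre library was below every one of these wild types. The log2 change was -0.47 ± 0.08 (SE, limma, adjusted p = 0.00254), and the call held without each library in turn (changes of -0.52 to -0.40). In Six2-Cre kidneys Gdnf was at 22.5, 22.4 and 22.2 FPKM, against 27.6, 23.3 and 22.4 FPKM in wild-type replicates 7 to 9. These groups overlapped, and the change of -0.12 ± 0.08 (SE) did not pass (limma, adjusted p = 0.407), with a 95% interval of -0.31 to 0.08.

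Nephron progenitor markers, from the cells that are a known source of Gdnf, moved in both mutants. Of 8 measured in Foxd1-Cre kidneys 4 fell, namely Uncx, Meox1, Cited1 and Six2, and 4 did not pass. The fall of Six2 (-0.27 ± 0.07, SE) was not called after scaling to the same sum (limma, adjusted p = 0.112) or with all 9 wild types (-0.13, adjusted p = 0.460). Nor was it called without Foxd1-Cre library 2, 3 or 5 or wild type 4 or 6 (adjusted p up to 0.0776). The summed level of the 9 listed was 321 to 362 FPKM in Foxd1-Cre kidneys against 398 to 503 FPKM in wild-type replicates 1 to 6. Of the same 8 in Six2-Cre kidneys all 8 fell, with a sum of 95.9 to 101 FPKM in Six2-Cre kidneys against 297 to 345 FPKM in wild-type replicates 7 to 9. Of 8 cortical stroma markers in Foxd1-Cre kidneys 4 were called lower, among them Foxd1 and Aldh1a2 (on average 82.1 FPKM in Foxd1-Cre kidneys and 232 FPKM in wild types). Lum was called higher (on average 15.9 FPKM in Foxd1-Cre kidneys and 8.03 FPKM in wild types), and the other 3 were not called. Their sum was 259 to 291 FPKM in Foxd1-Cre kidneys against 487 to 528 FPKM in their wild types. That lower sum rested mostly on Aldh1a2 and Foxd1 (on average 19.9 FPKM in Foxd1-Cre kidneys and 102 FPKM in wild types). Tcf21 and Dcn, not called, averaged higher in Foxd1-Cre kidneys than in wild types (120 against 103 FPKM and 21.6 against 14.3 FPKM). The part of these shifts in the level of Gdnf was not tested. In whole kidneys fewer cells of a type and less RNA per cell cannot be told apart.

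The receptor Ret (ENSMUSG00000030110, GRCm38 chromosome 6, 118151745 to 118197718, minus strand) varied widely between libraries of 1 group. It was at 15.3, 11.2, 9.42, 11.1 and 12.45 FPKM in Foxd1-Cre replicates 1 to 5, against 8.27 (lowest), 10.7 (median) and 14.9 (highest) FPKM in wild-type replicates 1 to 6. The groups overlapped throughout, and the change of 0.06 ± 0.15 (SE) did not pass (limma, adjusted p = 0.828), with a 95% interval of -0.25 to 0.38 that spans changes in both directions. Its sign turned without Foxd1-Cre replicate 1 (-0.02) or wild-type replicate 5 (-0.01). In Six2-Cre kidneys Ret was at 8.20, 8.25 and 8.73 FPKM, against 11.6, 12.6 and 10.02 FPKM in wild-type replicates 7 to 9, with no overlap. That fall of 0.40 ± 0.09 on the log2 scale (SE, limma, adjusted p = 0.0375) rested on every library but wild-type replicate 9. Without any 1 of the other 5 the adjusted p by limma lay between 0.0917 and 0.109. With no filter on low values it was 0.0547, and in a joint fit of the 4 group means it was 0.112.

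Gfra1 (ENSMUSG00000025089, GRCm38 chromosome 19, 58235604 to 58455909, minus strand), the co-receptor that binds GDNF, was at 28.1, 31.3 and 29.0 FPKM in Six2-Cre kidneys, against 45.8, 45.1 and 43.1 FPKM in wild-type replicates 7 to 9. All Six2-Cre libraries were far below all of these wild types. The log2 change was -0.59 ± 0.05 (SE, limma, adjusted p = 0.00213) and stayed called without each library in turn. In Foxd1-Cre kidneys Gfra1 was at 37.1, 37.3, 32.7, 30.6 and 32.8 FPKM, against 34.0 (lowest), 39.3 (median) and 43.5 (highest) FPKM in wild-type replicates 1 to 6. The groups overlapped, and the change of -0.17 ± 0.07 (SE) did not pass (limma, adjusted p = 0.144). The lowest wild-type value was that of replicate 5, without which the change was -0.21 (limma, adjusted p = 0.066). Gfra1 overlaps the antisense gene Gm16277, and since counting by strand is not stated its value may hold reads of that gene.

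The integrin gene and that of its ligand both fell in Six2-Cre kidneys, Npnt by more than Itga8. Npnt (ENSMUSG00000040998, GRCm38 chromosome 3, 132881745 to 132950291, minus strand), which encodes the matrix protein nephronectin, showed the largest change of the 9 genes in either mutant. It was at 10.2, 10.7 and 9.67 FPKM in Six2-Cre kidneys, against 21.4, 21.5 and 20.9 FPKM in wild-type replicates 7 to 9. The highest Six2-Cre library was far under the lowest of these wild types. The log2 change was -0.995 ± 0.057 (SE, limma, adjusted p = 5.65e-04), between -1.03 and -0.96 without each library in turn. In Foxd1-Cre kidneys Npnt was at 22.8, 19.7, 19.7, 17.5 and 19.3 FPKM, against 16.8 (lowest), 23.6 (median) and 25.0 (highest) FPKM in wild-type replicates 1 to 6. The groups overlapped, and the change of -0.15 ± 0.10 (SE) did not pass (limma, adjusted p = 0.380). The lowest wild-type value was that of replicate 5, without which the change was -0.23 (adjusted p = 0.0576). An snRNA gene, Gm23196, lies within Npnt on the other strand.

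Itga8 (ENSMUSG00000026768, GRCm38 chromosome 2, 12106632 to 12301922, minus strand), the integrin chain that the mesenchyme uses to bind nephronectin, was at 20.0, 20.2 and 19.7 FPKM in Six2-Cre kidneys, against 29.1, 30.2 and 26.6 FPKM in wild-type replicates 7 to 9. The groups did not overlap. The change was -0.50 ± 0.06 (SE, limma, adjusted p = 0.00462), and it stayed called without each library in turn. In Foxd1-Cre kidneys Itga8 was at 19.4, 18.4, 17.8, 15.8 and 15.9 FPKM, against 11.2 (lowest), 16.5 (median) and 18.9 (highest) FPKM in wild-type replicates 1 to 6. The groups overlapped, with a change of 0.11 ± 0.11 (SE, limma, adjusted p = 0.596) that was 0.02 without wild-type replicate 5. Since the wild types of the 2 sets differ at this gene, its change in Six2-Cre kidneys was 0.04 against all 9 wild types. Itga8 shares its locus with the antisense gene E030013I19Rik and with Gm37701 on the same strand, so its value may hold reads of those genes.

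Gdnf and Npnt carried the largest fall among the 9 genes in the Foxd1-Cre and the Six2-Cre kidneys, and for that reason their promoters are shown. RefSeq (GRCm38.p6) start sites were found for 7 of the 9 genes in 10 windows, and Etv4 and Ret had none. Below are the 250 bases before 1 start of each gene, 5′ to 3′ on the gene's strand, at chr15:7809798-7810047 (plus strand) for Gdnf and chr3:132950292-132950541 (minus strand) for Npnt. Capitals mark the GC box GGGCGG on either strand.
Gdnf: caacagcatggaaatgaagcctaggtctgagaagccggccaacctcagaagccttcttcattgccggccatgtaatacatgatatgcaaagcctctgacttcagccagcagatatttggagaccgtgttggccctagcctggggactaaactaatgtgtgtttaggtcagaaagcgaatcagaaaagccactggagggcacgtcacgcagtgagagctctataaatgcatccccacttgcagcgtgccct
Npnt: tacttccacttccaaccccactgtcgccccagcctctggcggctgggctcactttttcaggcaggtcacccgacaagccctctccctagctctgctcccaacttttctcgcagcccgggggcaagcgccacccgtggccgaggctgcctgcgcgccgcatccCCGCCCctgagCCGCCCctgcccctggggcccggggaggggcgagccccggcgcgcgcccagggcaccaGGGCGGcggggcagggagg
The Npnt window held 3 GC boxes and was 74.0% G or C, and the Gdnf window held 0 and was 50.8% G or C. The other Npnt window held 0 GC boxes. A GC box was in 4 of the 10 windows, against 32.7% of all 32851 promoter windows of this length. The core letters CTTTGA of sites bound by TCF/LEF factors, the DNA-binding partners of beta-catenin, were in 0 of the 10 windows on either strand, against 13.8% of all windows. The ETS core CCGGAA was in 1 of the 10, that of Gfra1, against 12.0% of all windows. These matches describe letters in short windows only and say nothing of binding.

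Among the genes that answer to RET, Etv4 (ENSMUSG00000017724, GRCm38 chromosome 11, 101769742 to 101785371, minus strand) was lower in both mutants. It was at 51.9, 45.2, 44.4, 44.1 and 48.5 FPKM in Foxd1-Cre replicates 1 to 5, against 56.9 (lowest), 59.7 (median) and 67.7 (highest) FPKM in wild-type replicates 1 to 6, with no overlap. The change was -0.38 ± 0.05 (SE, limma, adjusted p = 4.62e-04), called without each library in turn, but with all 9 wild types as controls it was -0.27 and did not pass (adjusted p = 0.0658). In Six2-Cre kidneys Etv4 was at 37.5, 39.4 and 38.8 FPKM, against 53.2, 47.9 and 44.0 FPKM in wild-type replicates 7 to 9. Those groups did not overlap either. The change of -0.31 ± 0.07 (SE, limma, adjusted p = 0.0382) ceased to be called without any 1 of the 3 Six2-Cre libraries or wild-type replicates 7 or 8 (adjusted p from 0.0641 to 0.112).

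Etv5 (ENSMUSG00000013089, GRCm38 chromosome 16, 22381309 to 22439719, minus strand), the close relative of Etv4, did not pass in either mutant. It was at 44.1, 38.0, 40.0, 37.9 and 38.9 FPKM in Foxd1-Cre kidneys, against 36.3 (lowest), 44.4 (median) and 47.1 (highest) FPKM in wild-type replicates 1 to 6 (change -0.11 ± 0.07, SE, limma, adjusted p = 0.352). It was at 44.3, 48.7 and 46.1 FPKM in Six2-Cre kidneys, against 52.3, 45.9 and 44.5 FPKM in wild-type replicates 7 to 9 (change -0.03 ± 0.07, SE, limma, adjusted p = 0.8004). Both pairs of groups overlapped, and the 95% intervals ran from -0.26 to 0.04 and from -0.21 to 0.14. Without wild-type replicate 5, the lowest of its group, the Foxd1-Cre change was -0.16 (limma, adjusted p = 0.0729). The ratio of Etv4 to Etv5 was lower in every mutant library than in every wild type of its set. It was 1.11 to 1.25 in Foxd1-Cre kidneys against 1.30 to 1.87 in wild-type replicates 1 to 6, and 0.810 to 0.847 in Six2-Cre kidneys against 0.989 to 1.04 in wild-type replicates 7 to 9. This ratio was chosen after the values were seen and was not tested.

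Spry1 (ENSMUSG00000037211, GRCm38 chromosome 3, 37639947 to 37644598, plus strand), the feedback inhibitor of RET, was the 1 gene of the 9 that rose. In Six2-Cre kidneys it was at 57.4, 54.0 and 54.9 FPKM, against 43.2, 41.1 and 37.1 FPKM in wild-type replicates 7 to 9, with no overlap. The change was 0.45 ± 0.06 (SE, limma, adjusted p = 0.00838) and stayed called without each library in turn. In Foxd1-Cre kidneys Spry1 was at 44.0, 42.0, 44.6, 45.6 and 45.3 FPKM, against 45.6 (lowest), 48.1 (median) and 50.9 (highest) FPKM in wild-type replicates 1 to 6. The groups met without overlapping, and the change of -0.11 ± 0.03 (SE) did not pass (limma, adjusted p = 0.0564), though it did without wild-type replicate 2 (adjusted p = 0.0353). The gene model Gm42922 overlaps Spry1 on the other strand.

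Sox8 (ENSMUSG00000024176, GRCm38 chromosome 17, 25565892 to 25570686, minus strand), a tip transcription factor, was the lowest of the 9 genes in every group. It was at 4.00, 3.48, 3.55, 3.43 and 4.19 FPKM in Foxd1-Cre replicates 1 to 5, against 4.11 (lowest), 4.61 (median) and 5.44 (highest) FPKM in wild-type replicates 1 to 6. The groups overlapped at 1 library, and the fall of 0.26 ± 0.07 (SE, limma, adjusted p = 0.0209) was not called without Foxd1-Cre replicate 2, 3 or 4 (adjusted p from 0.0555 to 0.0580). In Six2-Cre kidneys Sox8 was at 2.16, 2.79 and 3.00 FPKM, against 5.43, 4.14 and 4.97 FPKM in wild-type replicates 7 to 9, with no overlap. The change was -0.68 ± 0.14 (SE, limma, adjusted p = 0.0243), and without any 1 library except wild-type replicate 8 the adjusted p was 0.0518 to 0.0749. At the depth of that set, and if its longest annotated transcript of 3000 bases carried the reads, these levels rest on about 35 to 55 reads per Six2-Cre library and 70 to 88 per wild-type library. Sox8 overlaps the antisense gene 2810468N07Rik.

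**Figure D2:**
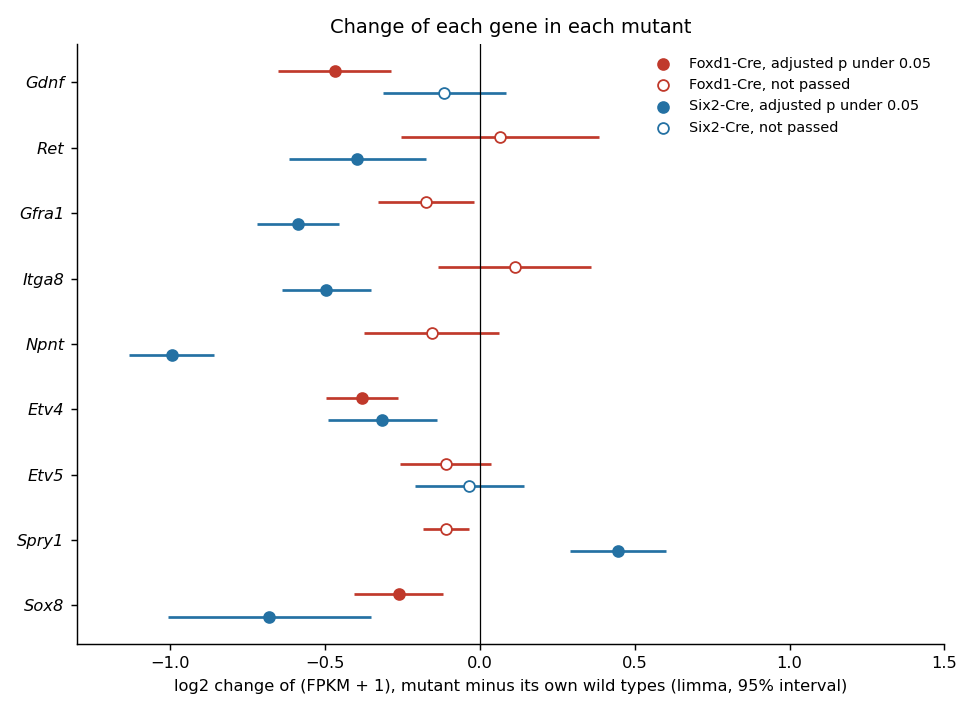
Log2 change of (FPKM + 1) of each axis gene in Foxd1-Cre (red) and Six2-Cre (blue) kidneys, each minus its own wild types, with limma's 95% interval; filled points passed at adjusted p under 0.05 and open points did not. Etv4 and Sox8 are lower and called in both mutants, Gdnf is lower and called in Foxd1-Cre kidneys, and Npnt lies farthest from 0 at -0.995 in Six2-Cre kidneys.

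In all, 7 of the 9 genes were called in Six2-Cre kidneys by limma, 6 lower and 1 higher, against 13.8% of the 13828 genes tested there (5.84% lower and 7.93% higher). The median log2 change of the 9 was -0.40, against -0.01 over all genes tested. The groups did not overlap at the same 7 genes, while 35.7% of all genes tested showed no overlap in that comparison of 3 against 3 libraries. In Foxd1-Cre kidneys 3 of the 9 genes (Gdnf, Etv4 and Spry1) showed no overlap, against 10.7% of all genes tested. With 1 library left out the number called among the 9 was 4 to 6 in Six2-Cre and 2 to 4 in Foxd1-Cre kidneys.

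The mutants were compared with each other through their own wild types, as the Foxd1-Cre change minus the Six2-Cre change. The difference was called for 4 of the 9 genes, 3 higher and 1 lower, against 11.0% of 13810 genes (5.76% higher and 5.24% lower). It was 0.84 ± 0.11 for Npnt (SE, limma fits, adjusted p = 1.07e-04), 0.61 ± 0.13 for Itga8 (adjusted p = 0.00456), 0.41 ± 0.09 for Gfra1 (adjusted p = 0.00503) and -0.56 ± 0.07 for Spry1 (adjusted p = 8.26e-04). With all 9 wild types as controls for both mutants, the shared wild types cancel out of the difference. It then compares the Foxd1-Cre with the Six2-Cre libraries directly across the 2 sets, and cannot separate genotype from set. In that comparison Gfra1 stood at 0.20 (adjusted p = 0.0786) and Itga8 at -0.19 (adjusted p = 0.496), and neither was called. Within the sets, the first 3 were lower in Six2-Cre than in Foxd1-Cre kidneys relative to their wild types, and Spry1 was higher. For Gdnf the difference of -0.35 ± 0.12 did not pass (adjusted p = 0.0643), so its fall was not shown to differ between the mutants. Ret (0.46 ± 0.17, adjusted p = 0.0991), Sox8 (0.42 ± 0.15, adjusted p = 0.119), Etv4 (-0.07 ± 0.09, adjusted p = 0.725) and Etv5 (-0.08 ± 0.10, adjusted p = 0.705) did not pass either. No library of one mutant shared a set with the other, so a set effect that acts on mutants alone cannot be told apart from the genotype.

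The ureteric epithelium itself was read from 15 markers that are not among the 9 genes, some of which nascent nephron epithelium also expresses. In Six2-Cre kidneys 9 of the 15 fell by limma and 6 did not pass, with a median log2 change of -0.58 and a sum of 175 to 184 FPKM, against 253 to 273 FPKM in wild-type replicates 7 to 9. In Foxd1-Cre kidneys 3 of the 15 were called, 2 higher and 1 lower, with a median of -0.01 and a sum of 246 to 320 FPKM, against 251 to 302 FPKM in wild-type replicates 1 to 6. The levels of the 9 genes relative to these markers were read off, as log2(FPKM + 1) minus the mean of the markers on the same scale, with no test. Relative Ret was 0.21 to 0.31 in Six2-Cre kidneys, inside the -0.02 to 0.32 of wild-type replicates 7 to 9, and relative Gfra1 was 1.87 to 2.02 in Six2-Cre kidneys, overlapping the 1.96 to 2.08 of these wild types. Relative Npnt was lower, at 0.44 to 0.56 in Six2-Cre kidneys against 0.89 to 1.05 in the wild types. Relative Spry1 was 2.79 to 2.88 in Six2-Cre kidneys against 1.77 to 1.95 in the wild types, and relative Etv5 was 2.51 to 2.64 in Six2-Cre kidneys against 2.03 to 2.14 in the wild types. The bud markers called in Foxd1-Cre kidneys were Hoxb7, which was lower, and Elf3 and Krt19, which were higher. In Foxd1-Cre kidneys relative Etv4 was 1.92 to 2.04 against 2.22 to 2.62 in wild-type replicates 1 to 6. In Six2-Cre kidneys it lay on the other side, at 2.28 to 2.35 against 2.013 to 2.168 in wild-type replicates 7 to 9, also with no overlap. Relative Sox8 was -1.482 to -1.303 in Foxd1-Cre kidneys against -1.21 to -0.79 in wild-type replicates 1 to 6, with no overlap. In Six2-Cre kidneys relative Sox8 was -1.33 to -0.97 against -1.08 to -0.90 in wild-type replicates 7 to 9, with overlap. Since every library is a mixture of all kidney cells, a level relative to bud markers is not a level in bud cells. The part of a change in bud tissue, or in other tissue such as nephron progenitors, in the falls of Ret and Gfra1 was not tested further.

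**Figure D3:**
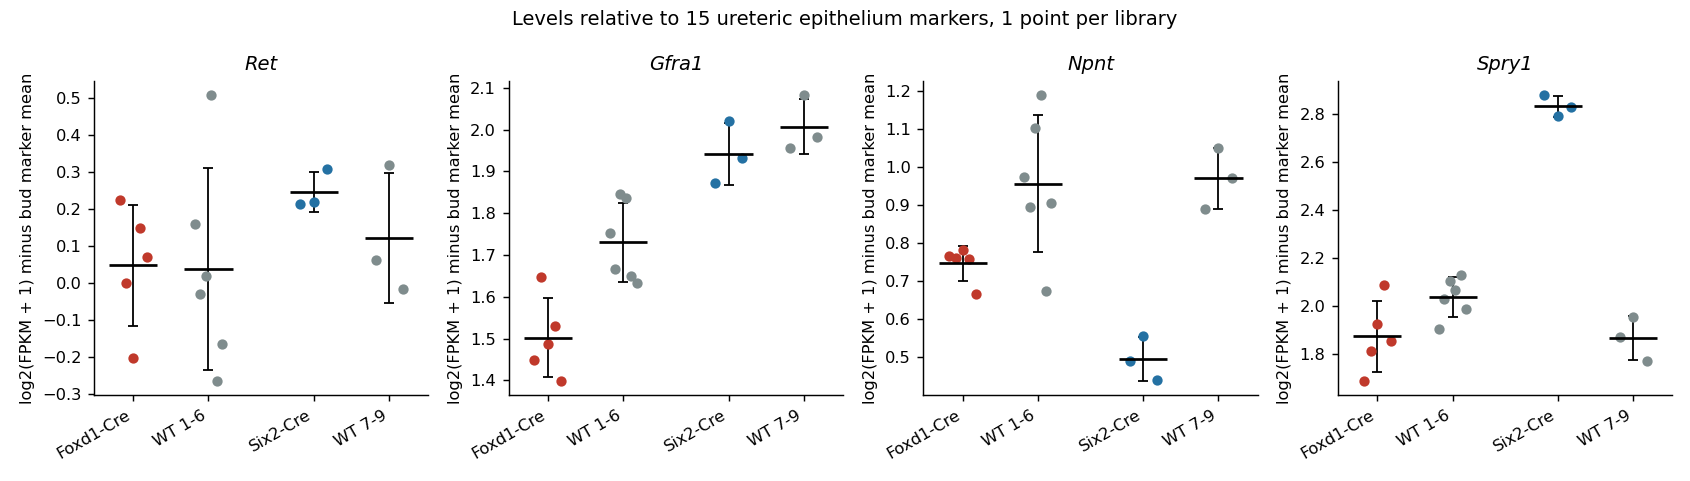
Level of Ret, Gfra1, Npnt and Spry1 in each library as log2(FPKM + 1) minus the mean of 15 ureteric epithelium markers on the same scale, with Foxd1-Cre beside wild-type replicates 1 to 6 and Six2-Cre beside wild-type replicates 7 to 9; lines are means and bars 1 SD, and the axes do not start at 0. In Six2-Cre kidneys relative Ret lies inside the range of its wild types, while relative Npnt lies below it and relative Spry1 above it.

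Neural crest and autonomic precursors also use RET and its co-receptors, and some of their markers were higher in the mutants. In Six2-Cre kidneys 4 of 6 measured rose by limma, and the 9 listed summed to 28.4 to 42.9 FPKM against 14.9 to 23.1 FPKM in wild-type replicates 7 to 9. In Foxd1-Cre kidneys Tubb3 and Th rose and Stmn2 fell, and the sum was 30.6 to 43.3 FPKM against 18.5 to 22.1 FPKM in wild-type replicates 1 to 6. That higher sum rested on Tubb3, a neuronal tubulin (22.4 FPKM on average in Foxd1-Cre kidneys against 1.93 FPKM in wild types). Without it, a choice made after seeing the data, the other 8 summed to 12.3 to 16.9 FPKM in Foxd1-Cre kidneys against 17.1 to 20.5 FPKM in their wild types, and to 23.0 to 36.8 FPKM in Six2-Cre kidneys against 13.1 to 21.2 FPKM in theirs. The glial and crest factor Sox10 was at 0.514 to 2.37 FPKM in Six2-Cre kidneys against 0.169 to 0.610 FPKM in their wild types, and at 0.307 to 0.986 FPKM in Foxd1-Cre kidneys against 0.0661 to 0.946 FPKM in theirs. Their part in the levels of Ret and Gfra1 was not tested.

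Ratios between partners were read off as a description, with no test. The ratio of Itga8 to Npnt was 1.89 to 2.04 in Six2-Cre kidneys against 1.27 to 1.40 in wild-type replicates 7 to 9, and 0.822 to 0.932 in Foxd1-Cre kidneys against 0.650 to 0.805 in wild-type replicates 1 to 6. It was higher in all mutant libraries than in all wild types of their set. The ratio of Gdnf to Ret was 2.54 to 2.75 in Six2-Cre kidneys against 1.86 to 2.38 in their wild types. In Foxd1-Cre kidneys it was 1.05 to 1.61 against 1.31 to 2.47 in wild-type replicates 1 to 6, with overlap, and the ratio of Gfra1 to Ret overlapped in both comparisons.

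**Figure D4:**
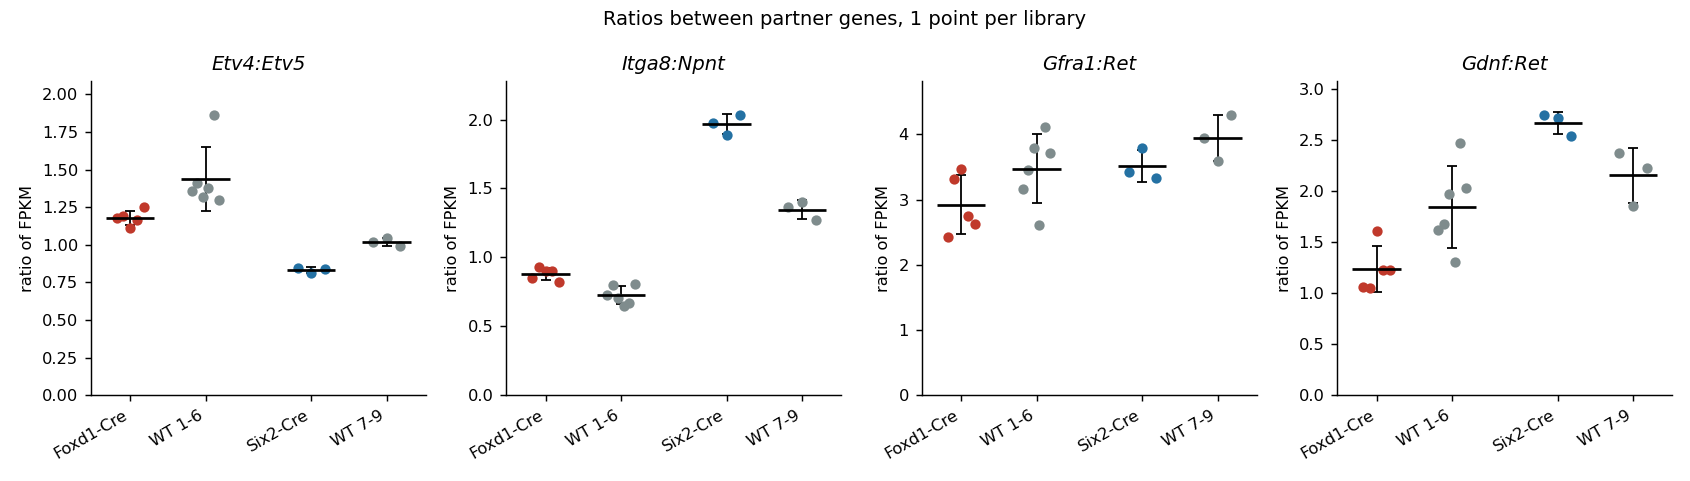
Ratio of FPKM between partner genes in each library (linear axes from 0), with Foxd1-Cre beside wild-type replicates 1 to 6 and Six2-Cre beside wild-type replicates 7 to 9; lines are means and bars 1 SD. Etv4 to Etv5 is lower and Itga8 to Npnt higher in each mutant than in its wild types with no overlap, and Gfra1 to Ret overlaps in both.

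The genes whose pattern over the 17 libraries was most like that of Gdnf or Ret were found among 9445 genes that averaged 5 FPKM or more in both sets. Likeness was the root mean square difference between the genes' log2(FPKM + 1) values, each taken from the mean of the wild types of its set. Closest to Gdnf were Sall1 (0.09), a zinc finger factor of the kidney mesenchyme, Dock11 (0.11) and Glcci1 (0.13). Closest to Ret were Calb1 (0.14), a calcium-binding protein of the bud epithelium, Cyfip2 (0.16) and Bend3 (0.16).

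The wider pathway was read from lists of known partners. Of 13 genes upstream of Gdnf in the mesenchyme in Six2-Cre kidneys 5 were called, all lower, with a median log2 change of -0.20. The falls were in Eya1 (-1.54 ± 0.06, SE), a coactivator required for Gdnf expression, Pax2 (-0.88 ± 0.06), Wt1 (-0.90 ± 0.06), Osr1 (-0.87 ± 0.12) and Hoxa11 (-0.32 ± 0.07). In Foxd1-Cre kidneys 4 of the 13 were called, with a median of -0.06, and the remaining 9 were not. Sall1 (-0.43 ± 0.06, SE), Foxc1 (-0.30 ± 0.07) and Hoxc11 (-0.35 ± 0.09) fell and Gdf11 (0.20 ± 0.05) rose. The calls of Hoxc11 and Gdf11 were lost without some single libraries (adjusted p up to 0.0579 and 0.0794 by limma), namely without Foxd1-Cre replicate 3 or 4 for Hoxc11, and without Foxd1-Cre replicates 1, 2, 3 or 5 or wild-type replicate 1 for Gdf11. Scaling the libraries to the same sum also ended the call of Gdf11 (adjusted p = 0.0554).

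Of 7 inhibitors of branching 4 were called in Six2-Cre kidneys, 3 of them higher, and the list's median was 0.23. Bmp4 (1.74 ± 0.11, SE), which keeps extra buds from forming, Spry4 (0.67 ± 0.08), a Sprouty relative of Spry1, and the guidance ligand Slit2 (0.49 ± 0.07) rose, and the SLIT2 receptor gene Robo2 (-0.94 ± 0.08) fell. With all 9 wild types Robo2 stood at -0.42 and was not called (limma, adjusted p = 0.109). In Foxd1-Cre kidneys 4 of the 7 were called, 3 of them lower, and the list's median was 0.15, opposite in sign to most of the calls. Bmp4 rose there too (0.85 ± 0.10, SE). Sfrp1 (-0.31 ± 0.08), Spry2 (-0.19 ± 0.05) and Dusp6 (-0.17 ± 0.05), the ERK phosphatase, fell. These 3 falls were not called after scaling to the same sum (limma, adjusted p of 0.0576, 0.140 and 0.273). Leaving out 1 library also ended the call of Sfrp1 (Foxd1-Cre replicate 3 or 5, or any wild type but 5, adjusted p up to 0.0768). It ended that of Spry2 (any Foxd1-Cre library but 4, or wild-type replicate 1, 3, 5 or 6, up to 0.0925) and of Dusp6 (any Foxd1-Cre library but 3, or wild-type replicate 1, 3, 4 or 6, up to 0.108).

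Of 9 measured genes that permit or parallel RET signalling 5 were called in Foxd1-Cre kidneys, 4 of them higher, and the list's median was 0.20. Grem1 (1.61 ± 0.12, SE), the BMP inhibitor that lets the bud emerge, Fgfr2 (0.60 ± 0.05), Wnt11 (0.40 ± 0.08), a tip Wnt that sustains Gdnf, and the HGF receptor gene Met (0.34 ± 0.09) rose and Hgf (-0.50 ± 0.09) fell. In Six2-Cre kidneys 4 of the 9 were called, all lower, and the median was -0.27. The falls were in Fgf10 (-0.71 ± 0.08, SE), Fgfr2 (-0.73 ± 0.12), Met (-0.68 ± 0.15) and Gata3 (-0.27 ± 0.07), the bud transcription factor needed for Ret. The rise of Met was not called without any 1 Foxd1-Cre library or wild-type replicate 2 or 4 (adjusted p up to 0.0777). The falls of Met and Gata3 in Six2-Cre kidneys were not called without Six2-Cre replicate 1 or 3 or any 1 wild type (adjusted p up to 0.0983 and 0.138). With all 9 wild types as controls Gata3 stood at 0.47.

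Tip genes reported to depend on RET or on ETV4 and ETV5 did not move as 1 group. In Six2-Cre kidneys 5 of 9 were called, 2 higher and 3 lower, and the median was -0.49. Mmp14 (0.48 ± 0.04, SE), a membrane protease, and Cxcr4 (0.36 ± 0.07), a chemokine receptor, rose, and Vsnl1 (-1.19 ± 0.14), Adamts18 (-0.53 ± 0.11) and Met fell. With all 9 wild types Mmp14 stood at 0.16 and was not called (limma, adjusted p = 0.325). The call of Cxcr4 ended without any 1 of the 6 libraries (adjusted p from 0.0516 to 0.0651), and that of Adamts18 when Six2-Cre library 2 or 3, or wild type 8 or 9, was left out (adjusted p up to 0.0918). In Foxd1-Cre kidneys Wnt11 and Met rose, 2 others of the 9 fell and the median was -0.13. Adamts18 fell by 1.23 ± 0.12 (SE, log2 scale) and Vsnl1 by 0.38 ± 0.09, a call that ended after scaling to the same sum (adjusted p = 0.0569).

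Of the other ligands and co-receptors of the GDNF family 5 of 8 were tested, and Artn, Gdf15 and Gfral lay under the filter. Gfra2, the neurturin co-receptor, rose in Foxd1-Cre kidneys by 1.37 ± 0.13 (SE, log2 scale) and the other 4 did not pass. Of the 5, 0 were called in Six2-Cre kidneys by limma, and 1, Nrtn, was lower at an unadjusted p under 0.05. Of 7 matrix and adhesion partners of the integrin pair, Frem1 (0.42 ± 0.07, SE), a basement membrane protein, rose in Foxd1-Cre and Itgb1 (0.36 ± 0.04), the integrin beta chain that pairs with alpha 8, rose in Six2-Cre kidneys, and the other 6 of each comparison did not pass. Of 13 adaptors and kinases below RET 0 were called by limma in either mutant, with medians of 0.06 in Foxd1-Cre and 0.07 in Six2-Cre kidneys. At an unadjusted p under 0.05 there were 3 in Foxd1-Cre kidneys, 2 higher and 1 lower, and 5 in Six2-Cre kidneys, all higher. The share of all genes at that unadjusted threshold was not counted, so nothing is read from these counts or from Nrtn. It cannot be below the 13.3% (Foxd1-Cre) and 13.8% (Six2-Cre) called after adjustment. In the difference between the mutants 1 of the 13, Shc1, was called lower.

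**Figure D5:**
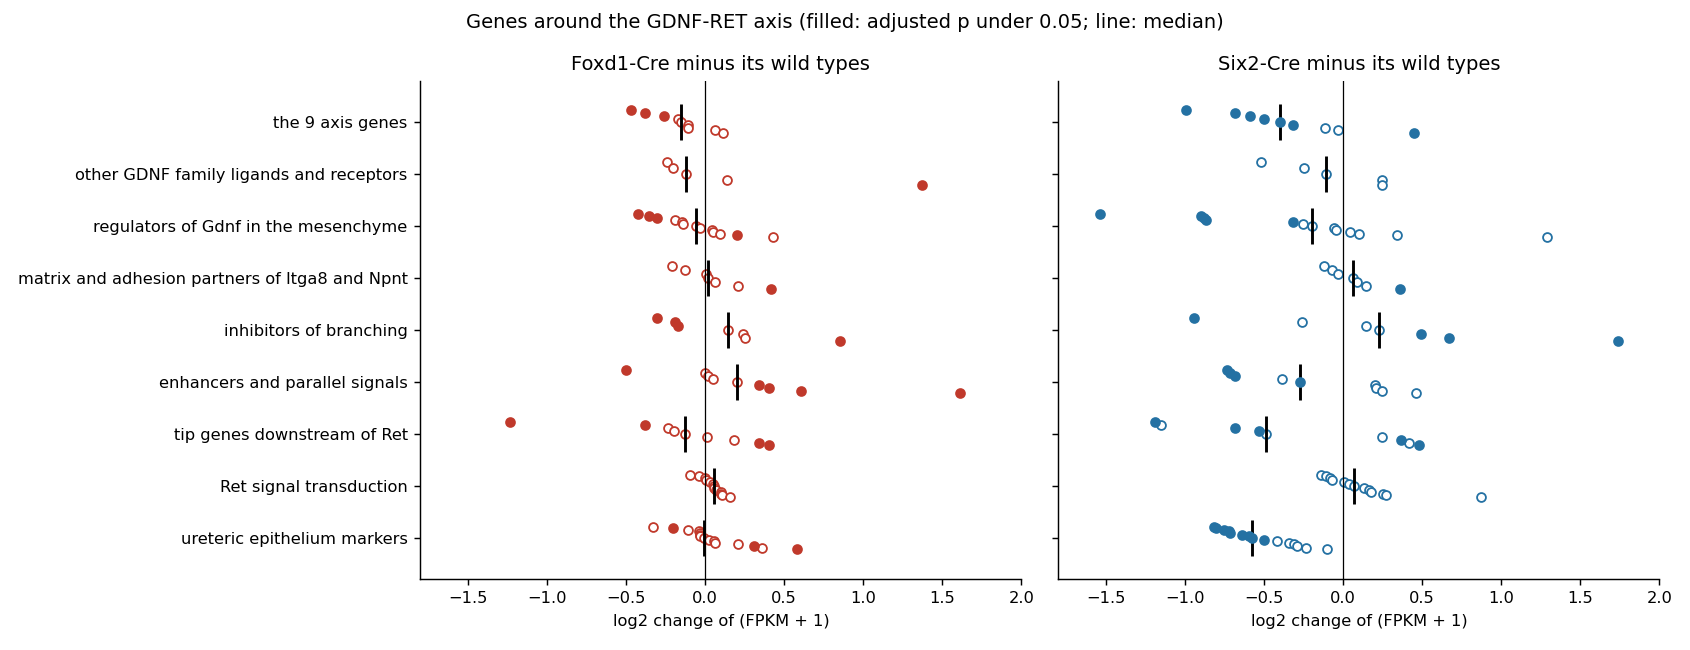
Log2 change of (FPKM + 1) of each tested gene in the axis, in lists of its partners and among ureteric epithelium markers, in Foxd1-Cre (left) and Six2-Cre (right) kidneys, each minus its own wild types; filled points passed at adjusted p under 0.05, open points did not, and the black line is the list's median. The axis genes have medians of -0.16 and -0.40, and the ureteric epithelium markers -0.01 and -0.58.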

How the data were processed

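RNA-seq of 17 E12.5 mouse kidney libraries was used, grouped by the sample titles. The submitters' processing notes name bcl2fastq 2.17.1.14 for base calling, Salmon for transcript quantification and the build GRCm38. FPKM per gene is the unit of the single table that the authors deposited. The gene-level summary, annotation release, strand and any scaling between libraries are not given in the sources used here. Whole read counts were not used here, and approximate depth was read from the most frequent lowest value times length among single-transcript genes. Upper quartiles were close (15.1 to 15.9 FPKM) while totals ran from 799273 to 963729 FPKM.

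Gene IDs were matched to GENCODE M21 (GRCm38), and 24222 of 24432 had a symbol. Genes that reached 1 FPKM in 3 or more libraries entered the tests, transformed as log2(FPKM + 1), a scale that understates changes of low genes, and fitted per library set with limma 3.58.1 in R 4.3.3 (variance trend, two-sided, Benjamini-Hochberg over all genes; call at adjusted p under 0.05). SE is limma's, SD is over libraries. The difference of the mutants used summed squared errors and Satterthwaite degrees of freedom. The fits were tested on simulated data. Alternatives were other pseudocounts, filters, scalings, controls and fits, and leaving out each library.

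Members and gene lists were chosen with earlier results of these data known. Named beyond the 9 genes were Axin2, Foxd1 and Six2, up to 4 called genes per list and mutant with the smallest p, and the 3 genes most like Gdnf and Ret. Hoxa11, and Met where it ranked below these 4, completed small counts after their values were seen, and Sox10, Nrtn, Tcf21 and Dcn were also chosen then.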

Additional observations from a re-analysis of the deposited data

Results flagged for a closer look

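Of 92 groups of libraries examined among the named genes, 4 held a library far from the others, and chance alone gives about 1 in 20. Calb1, a bud marker, was at 81.0 FPKM in Foxd1-Cre replicate 1 and at 58.3 to 64.1 FPKM in the other 4. Adamts18 was at 5.60 FPKM in Foxd1-Cre replicate 3 and at 4.52 to 4.71 FPKM in the others. Osr1 was at 22.1 FPKM in wild-type replicate 1 against 24.9 to 26.5 FPKM in wild-type replicates 2 to 6, and Itgb1 at 93.1 FPKM in wild-type replicate 5 against 118 to 121 FPKM in the rest of its group.

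The Foxd1-Cre change and the Six2-Cre change differed for 29 of the 46 named genes by the test of the difference itself (limma fits, adjusted p under 0.05), against 11.0% of all genes. Most of the 46 were named for a small p in 1 mutant, so nothing is read from that share. Given as Foxd1-Cre minus Six2-Cre on the log2 scale, the differences of axis genes were Npnt (0.84), Itga8 (0.61), Gfra1 (0.41) and Spry1 (-0.56). Differences above 0 elsewhere were those of Six2 (1.84), Gfra2 (1.48), Eya1 (1.39), Fgfr2 (1.34), Axin2 (1.22), Robo2 (1.18), Grem1 (1.15), Met (1.02), Wt1 (0.87), Pax2 (0.82), Vsnl1 (0.81), Fgf10 (0.73), Osr1 (0.68), Frem1 (0.49), Gata3 (0.47), Bend3 (0.41) and Cyfip2 (0.41). Those below 0 were Dusp6 (-0.39), Mmp14 (-0.47), Cxcr4 (-0.49), Spry4 (-0.52), Adamts18 (-0.70), Hgf (-0.71), Bmp4 (-0.88) and Foxd1 (-2.27). The difference of Grem1 was not called with a pseudocount of 0.1 or 0.01 (limma fits, adjusted p = 0.0575 and 0.0754).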

How the results depend on the processing

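Of the counts of calls, 112 settings stayed within 1.5 times the reported count and 14 did not. With all 9 wild types as controls for both mutants, 1234 genes were called in Foxd1-Cre and 6444 in Six2-Cre kidneys. The difference was called there for 7 axis genes and 8505 genes. The shared wild types cancel in that difference, so it holds any gap between the 2 sets and is not read as an effect of genotype. Of those 7 axis genes, Npnt and Spry1 were called within the sets too, and Gdnf (-0.61, adjusted p = 0.00105), Ret, Sox8, Etv4 and Etv5 were not. Other calls that ended there were Met (0.09), Hoxc11 (-0.19), Vsnl1 (-0.28), Frem1 (0.26), Sfrp1 (-0.25) and Spry2 (-0.34) in Foxd1-Cre and Met (-0.19) in Six2-Cre kidneys. The joint fit of 4 means called 3638 genes in Six2-Cre kidneys, but not Ret (limma, adjusted p = 0.112). Leaving out 1 library gave 4 to 6 axis genes and 907 to 1467 genes in Six2-Cre kidneys, 2 to 4 and 1423 to 1922 in Foxd1-Cre kidneys. Both other scalings left 3, 7 and 4 axis genes called in Foxd1-Cre, in Six2-Cre and in the difference.

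Signs turned with all 9 wild types for Itga8 in Foxd1-Cre kidneys (-0.15), and for Etv5 (0.0607), Gdnf (0.0532), Itga8 (0.0361) and Gata3 (0.47) in Six2-Cre kidneys. They also turned for the difference, in which the shared wild types cancel, of Etv4 (0.27), Itga8 (-0.19), Mmp14 (0.0049) and Gata3 (-0.64). Etv5 in Six2-Cre kidneys was 0.0050 after scaling to the same sum and -0.0787 to 0.0354 with 1 library left out, positive without wild-type replicate 7. Ret in Foxd1-Cre kidneys ran from -0.0235 to 0.14 with 1 library left out. The cause of these turns was not tested.

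The difference was also called for Gdnf without Foxd1-Cre replicate 1 (adjusted p = 0.0443), wild-type replicate 2 (0.0314) or 7 (0.00819) or with the replicate block (0.0467), for Sox8 in the joint fit (0.0464), and for Ret without wild-type replicate 4 (0.0456) or 9 (0.0455). The replicate block, possible for Foxd1-Cre and wild-type replicates 1 to 5, called 3 axis genes and 1426 genes, and 5 and 1567 in the difference. Same-numbered libraries correlated at 0.012 to 0.117, so the numbers were not taken as pairs. Depth limits Sox8 most in the Six2-Cre set.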

Other observations

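Markers of 2 further cell types moved in these kidneys. Endothelial markers, 8 in all, all rose in Six2-Cre kidneys by limma, and their sum was 193 to 204 FPKM in Six2-Cre kidneys against 91.7 to 113 FPKM in wild-type replicates 7 to 9. In Foxd1-Cre kidneys 2 of the 8 rose, Pecam1 and Emcn, with overlapping sums of 149 to 198 FPKM in Foxd1-Cre kidneys and 132 to 172 FPKM in wild-type replicates 1 to 6. Of 7 erythroid genes tested in Six2-Cre kidneys 6 fell and 1, the erythropoietin receptor gene Epor, rose, and the sum of the 9 listed was 4221 to 5330 FPKM in Six2-Cre kidneys against 8421 to 10208 FPKM in their wild types. In Foxd1-Cre kidneys 3 of the 7 fell, Epor among them, with overlapping sums of 3467 to 6020 FPKM in Foxd1-Cre kidneys and 4343 to 8107 FPKM in their wild types. The part of these shifts in the levels of the axis genes was not tested.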
